A study of Rattus norvegicus with 21 samples.

Results

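The genes described here code for the inhibitors that the extracellular signal-regulated kinase (ERK) pathway induces against itself, together with a pair of transcription factors that report its activity. They are the dual-specificity phosphatases Dusp4, Dusp5 and Dusp6, the Sprouty genes Spry1, Spry2 and Spry4, the Sprouty-related genes Spred1 and Spred2, and the ETS factors Etv4 and Etv5. The 10 genes were chosen by name, and each was read from the probe set with the highest mean over all 21 arrays. All 10 were found among the 14506 genes that the platform annotation names by a single symbol, each with 1 probe set, so no choice between probe sets arose.

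Growth factor receptors pass their signal through RAS, RAF and MEK to ERK, which enters the nucleus and switches on a small set of early genes. Several of these genes code for inhibitors that act on the pathway at different depths. Dusp6 removes the phosphates of ERK in the cytoplasm, Dusp5 does so in the nucleus, Dusp4 is a nuclear phosphatase of ERK and related kinases, and the Sprouty and Spred proteins act upstream, between the receptor and RAF. In the pituitary, ERK is activated in gonadotroph cells by the receptor for gonadotropin-releasing hormone, and the mRNAs of these inhibitors are widely used as an indirect readout of ERK output.

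The samples were 16 macrodissected pituitary lesions from MENX rats and 5 pituitaries from wild-type rats, each hybridized to an Affymetrix rat whole-transcript array, all of the strain Sprague–Dawley white eye/Wistar–Kyoto. MENX rats are homozygous for a loss-of-function mutation of Cdkn1b (written Cdknb1 in the labels), the gene of the cell cycle inhibitor p27, and develop multifocal adenomas of mainly gonadotroph origin. The labels give the lesions 9 sample numbers, read here as 9 rats (4 with 1 lesion, 3 with 2 and 2 with 3), and lesions of the same number were averaged. The mutant rats were 7 to 12 months old (6 female and 3 male), while every wild-type rat was 6 months old (2 female and 3 male), so genotype, tumor and age cannot be told apart. In such bulk samples fewer cells of a type and less RNA per cell cannot be told apart. Below, rats are called by the order of their sample numbers (MENX rats 1 to 9), and values are the authors' log2 RMA values. RMA is a summary of the probes of a gene after background correction and quantile normalization, and its values compare samples for a given gene, not genes with each other.

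The arrays were alike in overall level, with medians between 6.36 and 6.53. Adenomas were compared with wild-type pituitaries by limma on all 29214 probe sets. A call means a Benjamini-Hochberg adjusted p under 0.05. By this rule 8.49% of all probe sets were higher and 9.06% lower in adenomas. Cdkn1b mRNA itself had a mean of 9.23 ± 0.17 in adenomas (SD, n = 9) against 8.91 ± 0.19 in the wild type (SD, n = 5), a log2 difference of 0.33 (adjusted p = 0.0324). The mutation acts on the protein, so this level does not check the genotype. The gonadotroph markers Cga (log2 difference 0.91), Gnrhr (1.40) and Nr0b1 (1.56) were higher and Lhb (-2.24) and Fshb (-2.38) lower in adenomas.

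To show the regulatory sequence in front of the genes that the results turn on, the promoters of Dusp5, Dusp6 and Spry2 are printed, 250 bases before to 50 bases after the RefSeq transcript start on the rat build GRCr8. Dusp5 lies at chr1:262543524-262543823 (plus strand), Dusp6 at chr7:35979354-35979653 (plus strand) and the upstream start of Spry2 at chr15:89111877-89112176 (minus strand, written 5′ to 3′ along the gene). Capitals mark CArG boxes, the sites of serum response factor, and the pentamer TGACG (or its complement) of cyclic AMP response elements.
Dusp5: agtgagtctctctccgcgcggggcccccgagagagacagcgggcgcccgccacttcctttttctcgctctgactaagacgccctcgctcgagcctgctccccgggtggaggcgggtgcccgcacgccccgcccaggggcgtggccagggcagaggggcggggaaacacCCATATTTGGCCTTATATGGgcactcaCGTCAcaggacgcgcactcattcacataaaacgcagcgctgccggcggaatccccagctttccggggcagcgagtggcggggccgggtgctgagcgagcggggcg
Dusp6: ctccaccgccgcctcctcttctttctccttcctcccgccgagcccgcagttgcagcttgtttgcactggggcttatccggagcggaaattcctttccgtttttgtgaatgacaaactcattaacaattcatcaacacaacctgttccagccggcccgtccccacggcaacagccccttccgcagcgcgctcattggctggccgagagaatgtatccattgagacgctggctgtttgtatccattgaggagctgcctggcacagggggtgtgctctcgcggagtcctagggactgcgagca
Spry2: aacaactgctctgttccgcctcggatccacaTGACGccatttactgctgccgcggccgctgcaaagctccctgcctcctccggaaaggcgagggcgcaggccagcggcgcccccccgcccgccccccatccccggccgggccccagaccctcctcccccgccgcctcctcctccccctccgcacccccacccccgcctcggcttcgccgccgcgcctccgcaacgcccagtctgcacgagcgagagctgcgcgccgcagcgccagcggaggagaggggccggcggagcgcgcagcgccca

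The table of promoters held 9 windows for 8 of the 10 genes, with a pair of starts for Spry2. Dusp4 and Etv4 were not in it. Both strands were searched for the CArG box and for CCGGAAG, a long form of the site of ETS factors. They were also searched for the full cyclic AMP response element TGACGTCA and for its short form TGACG, which the full form contains. A CArG box was present in 1.64% of the 33469 rat promoters and, among these genes, in that of Dusp5 alone, which held adjoining boxes at bases 169 to 178 (CCATATTTGG) and 179 to 188 (CCTTATATGG). The short form TGACG occurred in 21.2% of promoters and in those of Dusp5, Spred2 and Spry2. Neither CCGGAAG (8.75% of promoters) nor the full element (1.83%) was found in any of the 9 windows. Other forms of the ETS site were not searched, so their presence is not described here. These matches describe the letters in the windows and not binding.

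Of the 10 genes, 5 were higher in adenomas than in wild-type pituitaries and 0 were lower. The shares over all probe sets were 8.49% and 9.06%. No gene of the 10 had a mean below the limit used to filter dim probe sets (6.43), so these shares cover dimmer probe sets as well. The 5 were all 3 phosphatases (Dusp6, Dusp5 and Dusp4) and 2 of the 3 Sprouty genes (Spry4 and Spry2). Both Spred genes and both ETS factors missed the threshold, as did Spry1, which had the only negative difference. The median log2 difference of the 10 genes was 0.52, against -0.03 over all probe sets. In Dusp4, Dusp6 and Spry4 all 9 rats lay above all 5 wild-type pituitaries, a separation seen in 2.66% of all probe sets, and in no gene of the 10 did all rats lie below (2.16% of all probe sets). Dusp6 alone passed a fold of 2 in addition to the test, as did 1.43% of all probe sets in the upward direction.

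**Figure D1:**
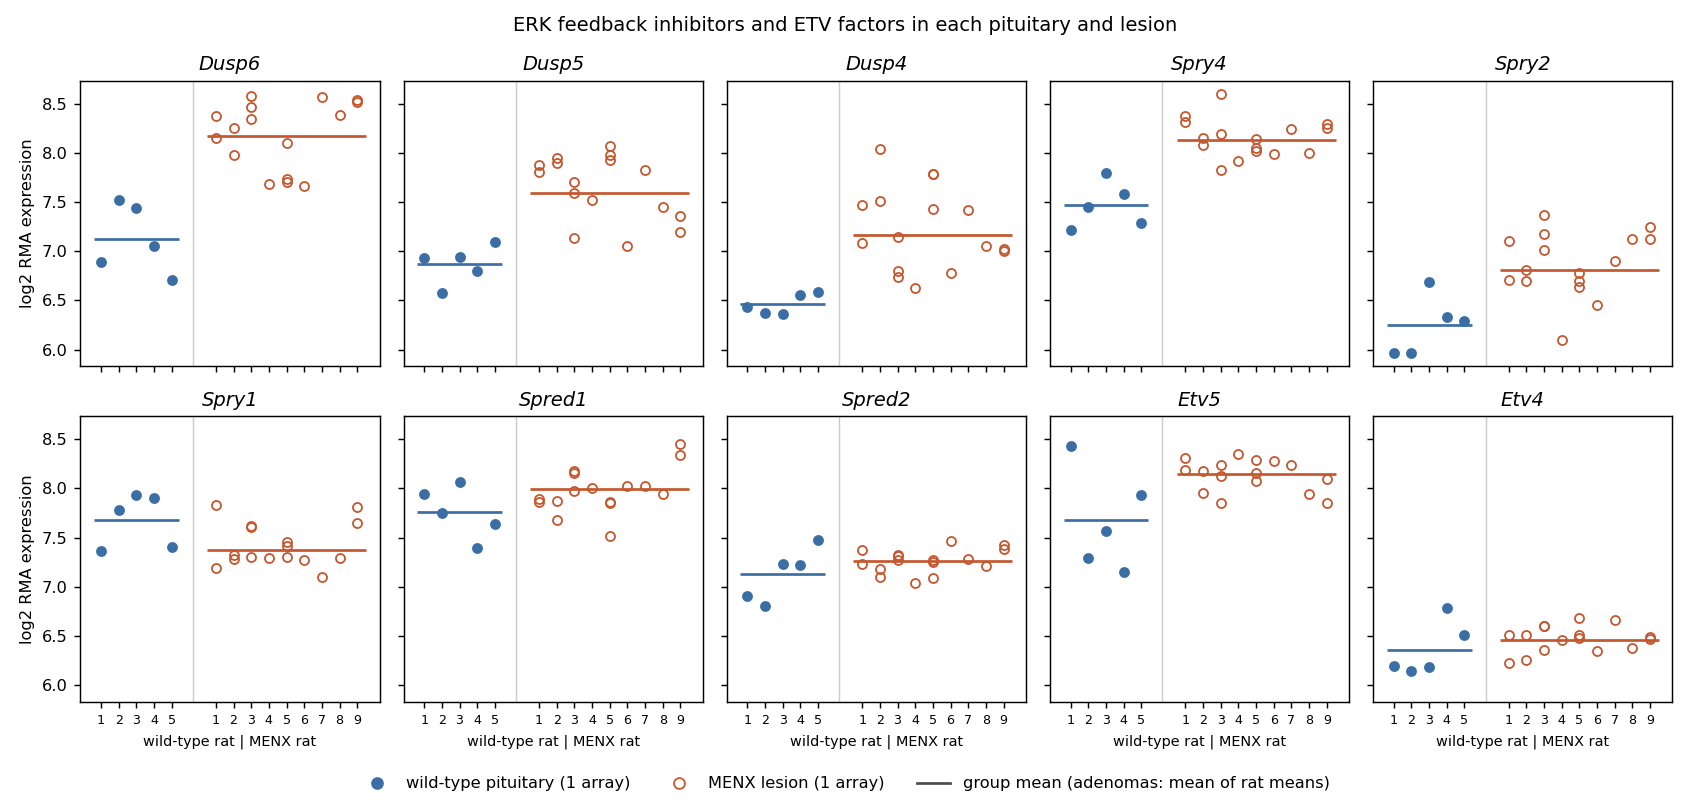
Log2 RMA expression (vertical axis) of the 10 genes in 5 wild-type pituitaries (filled points) and 16 lesions (open points, placed by MENX rat 1 to 9); horizontal lines are group means, for adenomas the mean of 9 rat means. All 16 lesions lie above all wild-type pituitaries in Dusp4, Dusp6 and Spry4, while the groups overlap in the other 7 genes.

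Dusp6, the cytoplasmic ERK phosphatase, had the largest difference of the 10. Its values were 6.90, 7.52, 7.44, 7.06 and 6.71 in the wild-type pituitaries. In the 9 MENX rats the lowest value was 7.67, the median 8.27 and the highest 8.57. The groups did not overlap, and all 16 single lesions (7.67 to 8.58) exceeded the highest wild-type pituitary. The mean rose from 7.12 ± 0.35 (SD, n = 5) to 8.17 ± 0.36 (SD, n = 9), which is 2.06-fold, or a log2 difference of 1.05 (SE 0.18, 95% interval 0.66 to 1.43, limma adjusted p = 0.00154).

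Dusp5 codes for the nuclear phosphatase of ERK. It was at 6.94, 6.58, 6.94, 6.80 and 7.10 in the wild-type pituitaries and at 7.06, 7.53 and 7.99 in the lowest, median and highest rat. The lowest rat, number 6, with 1 lesion, lay inside the wild-type range, and the other 8 rats lay above it. The difference was 0.73 on the log2 scale (SE 0.15, 95% interval 0.41 to 1.04), or 1.65-fold, with a limma adjusted p of 0.00419.

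Dusp4, the third phosphatase, was nearly uniform in wild-type pituitaries, at 6.44, 6.37, 6.36, 6.55 and 6.58 (SD 0.10). The lowest rat was at 6.62, the median at 7.06 and the highest at 7.78 (SD 0.40). The lowest rat, number 4, thus lay just above the highest wild-type pituitary, and the spread among rats exceeded that among wild-type pituitaries, whose SD was 0.26 times as large. Dusp4 rose 1.63-fold, a log2 difference of 0.71 (SE 0.17, 95% interval 0.35 to 1.07, limma adjusted p = 0.0103).

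Spry4, a Sprouty protein that restrains RAS and RAF activation, had the smallest adjusted p of the 10 genes. The wild-type pituitaries were at 7.22, 7.45, 7.80, 7.58 and 7.29, and the rats at 7.92, 8.12 and 8.34 (lowest, median, highest). The groups did not overlap, and the rat means were tightly grouped (SD 0.15, n = 9). The lowest single lesion, at 7.83, lay just above the highest wild-type pituitary. The log2 difference was 0.66 (SE 0.10, 95% interval 0.45 to 0.88), or 1.58-fold, at a limma adjusted p of 0.00063.

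Spry2, another Sprouty inhibitor of receptor signaling, was at 5.97, 5.96, 6.69, 6.33 and 6.29 in wild-type pituitaries. The lowest rat (6.09, rat 4) and rat 6 (6.46) lay within the wild-type range, while the other 7 rats lay above it, with a median of 6.90 and a highest value of 7.19. The log2 difference was 0.56 (SE 0.18, 95% interval 0.19 to 0.94), or 1.48-fold, and the limma adjusted p was 0.0387. This call lay near the threshold. It was lost in 11 of the 14 fits that left out 1 animal, with limma adjusted p between 0.00807 and 0.0795 over the 14. It was kept only without wild-type pituitary 3 or MENX rat 4 or 6. The log2 difference of Spry2 stayed between 0.49 and 0.68 in these fits.

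Spry1, the remaining Sprouty gene, had the lower mean in adenomas. It was at 7.37, 7.78, 7.93, 7.90 and 7.40 in wild-type pituitaries and at 7.10, 7.30 and 7.73 in the lowest, median and highest rat. The log2 difference was -0.30 (SE 0.12), with 5 of 9 rats below all wild-type pituitaries and a limma adjusted p of 0.0935. Leaving out wild-type pituitary 1 (log2 difference -0.37, adjusted p = 0.0344) or MENX rat 9 (-0.34, adjusted p = 0.0496) brought it past the threshold.

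Spred1 and Spred2, membrane-bound inhibitors of the step from RAS to RAF, differed little. Spred1 averaged 7.76 ± 0.26 in the wild type (SD, n = 5) against 7.99 ± 0.19 in adenomas (SD, n = 9), with a 95% interval of the log2 difference from -0.02 to 0.48 (adjusted p = 0.19). Spred2 was at 7.13 ± 0.27 and 7.26 ± 0.13, with an interval from -0.09 to 0.36 (adjusted p = 0.405). No rat lay outside the wild-type range in Spred2, and 2 rats lay above it in Spred1. The intervals leave room for a rise of up to 1.40-fold in Spred1 and 1.28-fold in Spred2.

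Etv4 and Etv5 are ETS transcription factors whose mRNAs follow ERK activity in many tissues. Etv4 was at 6.36 ± 0.28 in wild-type pituitaries and at 6.46 ± 0.10 in adenomas, with a 95% interval of the log2 difference from -0.12 to 0.32 (adjusted p = 0.526). Etv5 was at 8.43, 7.30, 7.57, 7.15 and 7.94 in wild-type pituitaries, against 7.94, 8.17 and 8.35 in the lowest, median and highest rat. The wild-type pituitaries spanned the whole range of the rats, and no rat exceeded the highest of them. The log2 difference of Etv5 was 0.47 (SE 0.17, 95% interval 0.12 to 0.83, limma adjusted p = 0.0608). Without wild-type pituitary 1, the highest, it was 0.66 (adjusted p = 0.00263). Of the 15 alternatives other than leaving out 1 animal, 3 called Etv5, with a lowest adjusted p of 0.0164. The limma fit of the 21 arrays with the sample number as a random block was among the 3 (adjusted p = 0.0251).

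**Figure D2:**
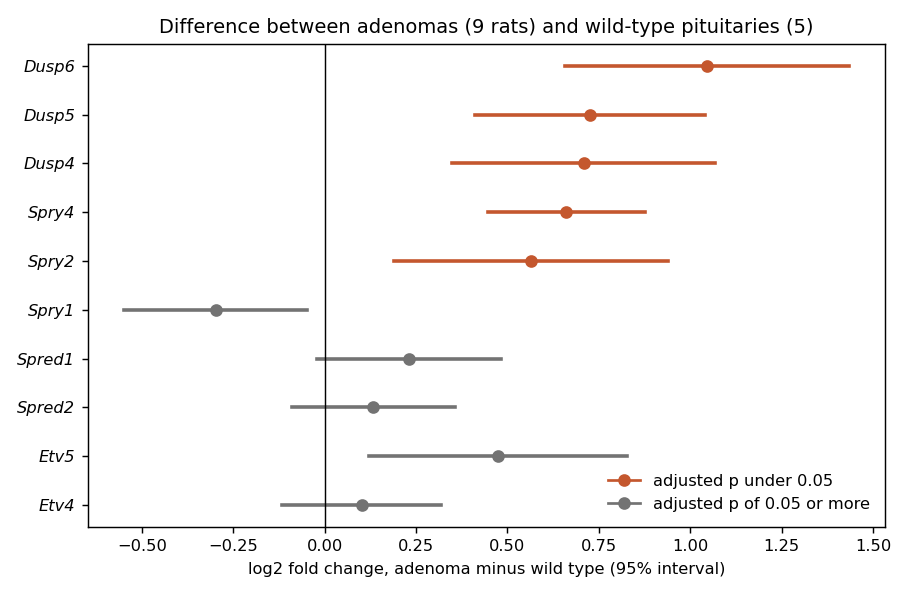
Log2 fold change of adenomas (9 rats) over wild-type pituitaries (5) with its 95% interval (horizontal axis) for each of the 10 genes; colored points have a limma adjusted p under 0.05. The 5 called genes run from 0.56 (Spry2) to 1.05 (Dusp6), and the intervals of Spred1, Spred2 and Etv4 cross 0.

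Markers of other cells moved between the same groups, where 8.49% of all probe sets were higher and 9.06% lower. Of 11 macrophage markers 8 were higher in adenomas, and their mean level lay between 6.78 and 7.69 in the rats, above the 6.21 to 6.76 of the wild-type pituitaries. Of 11 endothelial markers 3 were higher (mean level 6.95 to 7.75 in rats and 7.07 to 7.45 in wild-type pituitaries), and of 10 pericyte and fibroblast markers 5 were higher and 1 lower. All 9 measured mitosis genes were higher, with mean levels of 5.90 to 7.66 in rats and 5.24 to 5.51 in wild-type pituitaries. All 4 somatotroph markers and 4 of 5 corticotroph and melanotroph markers were lower. Of 7 folliculostellate and stem cell markers 5 were lower and 1 higher (mean level 6.69 to 7.17 in rats and 7.05 to 7.91 in wild-type pituitaries), and of 6 markers of posterior lobe glia 3 were lower and 1 higher (6.55 to 7.12 and 6.98 to 7.14). Among the 9 rats, none of the 20 correlations of the 5 called genes with the macrophage, endothelial, pericyte or mitosis level passed the adjustment. The largest was that of Spry4 with the macrophage level (Pearson r = 0.70, exact permutation p = 0.0274, adjusted p = 0.259; Spearman rho = 0.77, exact p = 0.0214, adjusted p = 0.428; r = 0.68 without the 2 rats farthest from the median of Spry4). Dusp6 gave r = 0.66 with the same markers (exact permutation p = 0.0424, adjusted p = 0.259) and -0.23 without the 2 farthest rats, so the relation rested on those. The macrophage level also had a positive r with the other called genes. It was 0.63 for Dusp4, 0.63 for Dusp5 and 0.65 for Spry2 (exact permutation p = 0.0647, 0.0637 and 0.0599, adjusted p = 0.259 each). Without the 2 farthest rats these were 0.65, 0.09 and -0.24. The part of these cell types in the differences was not tested.

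Lesions of the same rat resembled each other in some of these genes more than in others. The 5 rats with several lesions (12 lesions) give an SD within a rat of 0.16 for Dusp6, 0.16 for Spry2, 0.17 for Dusp5 and 0.24 for Dusp4. The SD between rat means was 2.20 times as large for Dusp6, 2.33 times for Spry2, 1.85 times for Dusp5 and 1.66 times for Dusp4. The SD between rat means covered all 9 rats, but the SD within a rat only the 5 with several lesions. Rats 4 and 6, the youngest, with 1 lesion each and the lowest Dusp6, Spry2 and Dusp4, thus widened only the SD between rats. Ratios over the 5 rats alone were not computed. In Spry4 the lesions of a rat varied more than the rat means did. The SD within rats was 0.21, and that between rat means was 0.693 times as large. Averaging the lesions of a rat by itself lowers the SD between rat means, so a ratio below 1 is no trait of Spry4. It was also below 1 for Etv4 (0.75), Spry1 (0.89) and Etv5 (0.94). MENX rat 3 shows both patterns. Its 3 lesions were at 8.58, 8.35 and 8.47 for Dusp6 but at 7.83, 8.20 and 8.60 for Spry4. For Etv5 the wild-type pituitaries were 3.62 times as variable as the rats, the reverse of Dusp4. These ratios are given as a description, without a test.

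The levels within adenomas were next set against the age of the rats. The youngest, rat 4 at 7 months and rat 6 at 8 months, each with 1 lesion, had the lowest values of 4 of the 5 called genes: Dusp6 (7.69 and 7.67), Spry2 (6.09 and 6.46), Dusp4 (6.62 and 6.78) and Spry4 (7.92 and 7.99). The same rats had the highest values of Etv5 (8.35 and 8.28). The slope over the 9 rats was 0.15 per month for Spry2 on the log2 scale (SE 0.04, limma p = 0.00393), 0.14 for Dusp6 (SE 0.04, p = 0.0127) and 0.12 for Dusp4 (SE 0.06, p = 0.0526). No gene of the 10 passed after adjustment over all probe sets (adjusted p of Spry2 0.219, Dusp6 0.294 and Dusp4 0.428), where limma called 0.00342% of probe sets, a single one. At an unadjusted p under 0.05, 4.51% of probe sets had a positive slope. With 1 rat left out at a time the slope of Spry2 lay between 0.10 (without rat 4, p = 0.094) and 0.18 (without rat 5, p = 0.0011). That of Dusp6 lay between 0.11 (without rat 6, p = 0.0564) and 0.17 (without rat 5, p = 0.000276), and that of Dusp4 between 0.09 (without rat 4, p = 0.282) and 0.15 (without rat 9, p = 0.0292). None of these passed the adjustment.

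**Figure D3:**
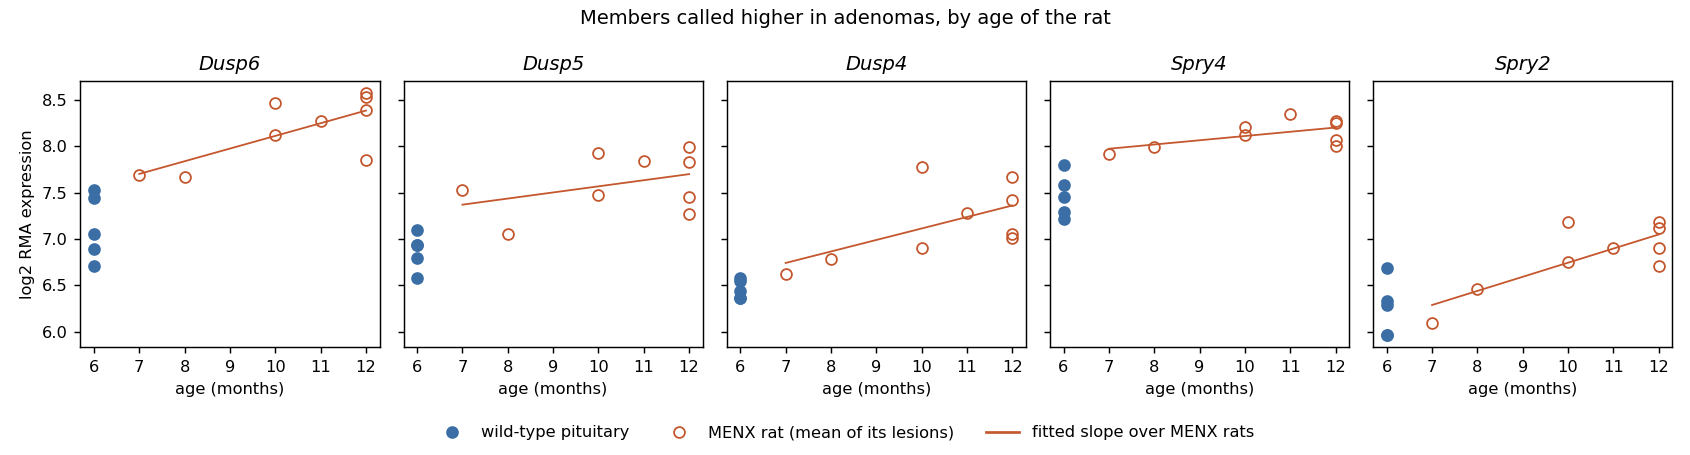
Log2 RMA expression (vertical axis) against age in months (horizontal axis) for the 5 genes called higher; filled points are wild-type pituitaries, open points MENX rats (mean of lesions), and lines the fitted slopes over the 9 rats. The rats of 7 and 8 months lie lowest among MENX rats in Dusp6, Dusp4, Spry4 and Spry2, and all wild-type rats are 6 months old.

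The comparison with wild-type pituitaries was repeated within age classes. With the rats of 7 or 8 months alone (n = 2) the log2 differences from wild-type pituitaries were 0.55 for Dusp6, 0.48 for Spry4, 0.42 for Dusp5, 0.24 for Dusp4 and 0.03 for Spry2, and none of the 10 genes was called by limma. With the rats of 10 to 12 months (n = 7), a restriction chosen after the values were seen, they were 1.19, 0.71, 0.81, 0.84 and 0.72, and the same 5 genes were called. Etv5 ran the other way, at 0.64 with the younger and 0.43 with the older rats.

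The sample numbers carry a prefix, 08 for MENX rats 1 to 5 and 09 for rats 6 to 9, and the wild-type pituitaries divide into 2 and 3. Within prefix 08 the log2 differences were 0.87 for Dusp6, 0.99 for Dusp5, 0.85 for Dusp4, 0.79 for Spry4 and 0.76 for Spry2. Within prefix 09 they were 1.22, 0.46, 0.57, 0.57 and 0.48. Spry4 passed within both prefixes (adjusted p = 0.0303 and 0.0365), Dusp5 within 08 alone (0.0367), and Dusp6 (0.0177) and Dusp4 (0.0429) within 09 alone. Whether the prefixes differ was not tested. With the prefix as a block the 5 calls were unchanged in number and Dusp6 was at 1.06.

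The effect of the tumor was also compared between the sexes, with an interaction term. No gene of the 10 and no other probe set passed after adjustment (limma, 6.78% of probe sets at an unadjusted p under 0.05). Etv5 was the clearest of the 10. Its values were 7.94 and 8.43 in the 2 female and between 7.15 and 7.57 in the 3 male wild-type pituitaries, while female adenomas averaged 8.17 and male adenomas 8.10. The log2 difference was thus -0.01 in females and 0.77 in males, an interaction of -0.78 (limma p = 0.00323, adjusted p = 0.456). Spry1 showed the opposite arrangement, at -0.02 in females and -0.47 in males (p = 0.0395, adjusted p = 0.713).

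A common rise and fall of the 10 genes was not shown among the adenomas, and 9 rats are too few to exclude it. Of the 45 pairs of these genes, 30 had a positive Pearson r over the 9 rats, with a median of 0.23. An unadjusted exact permutation p under 0.05 was reached by 6 pairs. After adjustment over the 45 pairs 1 passed by r and 0 by rank. That pair was Dusp6 and Spry2 (r = 0.89, exact permutation p = 0.000719, adjusted p = 0.0324; rho = 0.80, exact p = 0.0138, adjusted p = 0.379). Without the 2 rats farthest from the median of Dusp6, which are the rats of 7 and 8 months, r was 0.78. With 1 rat left out at a time the pair passed only without rat 7 (r = 0.94, exact adjusted p = 0.0067), while in the 8 other fits r was 0.87 to 0.91 with exact adjusted p between 0.0692 and 0.176. The pairs with the next smallest p were Dusp4 with Dusp5 and Spry2 with Etv5, and neither passed. Dusp4 and Dusp5 rose together (r = 0.82, exact p = 0.00815, adjusted p = 0.122; rho = 0.75, exact p = 0.0255, adjusted p = 0.379; r = 0.68 without the 2 farthest rats). Spry2 and Etv5 ran in opposite directions (r = -0.80, exact p = 0.0081, adjusted p = 0.122; rho = -0.70, exact p = 0.0433, adjusted p = 0.379; r = -0.60 without the 2 farthest rats). Dusp6 had r = 0.19 to Dusp4 and 0.10 to Dusp5. The prefixes hold 5 and 4 rats, fewer than the 6 taken here as the least for a correlation.

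Spry2 and the nuclear phosphatases Dusp4 and Dusp5 ran against each other among the 7 rats of 10 to 12 months. Over all 9 rats Spry2 had r = 0.25 to Dusp4 and 0.01 to Dusp5. Over the 7 older rats, a restriction chosen after the values were seen, r was -0.97 to Dusp4 (exact permutation p = 0.00179) and -0.96 to Dusp5 (exact p = 0.00159), each with an adjusted p of 0.0402 over the 45 pairs. That adjustment does not cover the choice of these 7 rats. Dusp6 also had a negative r in these rats, -0.72 to Dusp4 (exact p = 0.0679, adjusted p = 0.266) and -0.69 to Dusp5 (exact p = 0.0827, adjusted p = 0.286). Rats 2 and 5 had the highest Dusp4 (7.78 and 7.67) and Dusp5 (7.92 and 7.99) and the lowest Spry2 of the 7 (6.75 and 6.71). Rats 3, 8 and 9 had the highest Spry2 (7.19, 7.12 and 7.19) and the lowest Dusp4 (6.90, 7.06 and 7.02) of the 7. The rats of 7 and 8 months were low in both Spry2 and Dusp4.

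**Figure D4:**
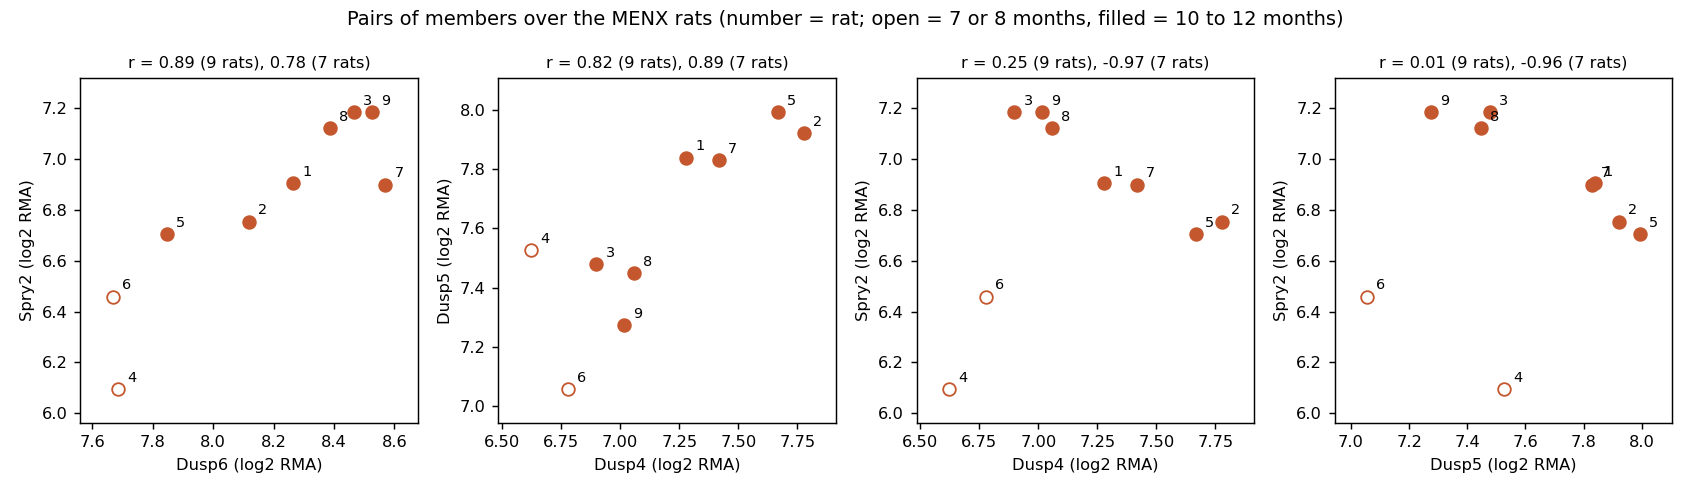
Log2 RMA expression of 4 pairs of genes over the 9 MENX rats (points, numbered by rat, mean of lesions; open for 7 or 8 months, filled for 10 to 12 months), with Pearson r over all 9 and over the 7 older rats. Spry2 rises with Dusp6 over the 9 rats, and falls with Dusp4 and Dusp5 over the 7 filled points only.

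Of 14505 other genes, those whose profile over the 9 rats was most like that of Dusp6 by Pearson r were P2ry13 (0.93), a purinergic receptor of myeloid cells, Or1j20 (0.92), an olfactory receptor, Clic4 (0.91), a chloride channel protein, Slit1 (0.91), a guidance ligand, and Hopx (0.91), a homeodomain protein. Spry2 ranked 15 in this order and Spry4 ranked 259. Slit1 was itself higher in adenomas, with a log2 difference of 1.99 (limma adjusted p = 0.000818), and the other 4 were not called. A search of 14505 genes over 9 rats can return such r values for unrelated genes, and the ranks were not tested.

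To place these genes in their pathway, 94 further genes were listed, of which 81 had a probe set with a single symbol. The counts of calls below stand beside 8.49% higher and 9.06% lower over all probe sets. The nearest relatives were 8 other dual-specificity phosphatases of MAP kinases, and none of them was called. With 1 animal left out, 1 of the 8 was called without wild-type pituitary 4 or 5 or without MENX rat 2 (Dusp7 in 2 of the 14 fits and Dusp8 in 1), and of the other alternatives 6 of 15 called 1 of them (Dusp7 or Dusp10, in 3 each). Among them Dusp10, a phosphatase of the stress kinases JNK and p38, was at 7.52 ± 0.55 in wild-type pituitaries and 8.44 ± 0.99 in adenomas (adjusted p = 0.155), and Dusp7, which like Dusp6 acts on cytoplasmic ERK, at 7.98 ± 0.49 and 8.53 ± 0.31 (adjusted p = 0.0633). Dusp1, an immediate early phosphatase, was at 8.80 ± 0.84 and 8.67 ± 0.59. Dusp2, Dusp3, Dusp8, Dusp9 and Dusp16 had log2 differences between -0.09 and 0.24. The median of the 8 was 0.06.

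Over all 21 genes named Dusp, which include phosphatases outside the MAP kinase group, 4 were higher and 2 lower. The fourth was Dusp15, an atypical phosphatase that is no part of the lists and was chosen after its value was seen. It rose from 5.33 ± 0.37 to 8.28 ± 0.44, a log2 difference of 2.95 and 7.72-fold (limma adjusted p = 1.58e-06), with all 9 rats above all wild-type pituitaries. The lower ones, named like Dusp15 after their values were seen, were Dusp14 (log2 difference -0.74, adjusted p = 0.00521) and Dusp18 (-0.36, adjusted p = 0.0426). Of the relatives of the other families, Spry3 (-0.23, adjusted p = 0.144) and Spred3 (0.03, adjusted p = 0.856) were not called, and Etv1, an ETS factor close to Etv4 and Etv5, was higher (0.44, adjusted p = 0.0073).

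Among 12 other inhibitors of the pathway 2 were higher and 2 lower, with a median log2 difference of -0.16. The lower count was 4 without wild-type pituitary 2 and 1 without wild-type pituitary 3, 4 or 5. Pebp1, the RAF kinase inhibitor protein, rose by 1.59 (3.00-fold, adjusted p = 0.00116), and Rasa3, a GTPase-activating protein of RAS, rose by 0.63. Pea15, which holds ERK in the cytoplasm, fell by 0.70 and Rasal2 fell by 0.57. Of 16 genes of the kinase cascade and its adaptors 1 was higher and 7 were lower (median -0.16). Map2k2 (MEK2), named after its value was seen as the only higher one, was higher by 0.36, and Map2k1 (MEK1), Braf, the exchange factor Sos1, the adaptor Gab1 and the ERK-activated kinase Rps6ka2 were lower, with log2 differences of -0.68, -0.46, -0.49, -0.56 and -0.91.

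Most other genes listed as ERK targets were not called, and those called were more often higher than lower. Of 25 measured, 6 were higher, 1 was lower and 18 were not called, and their median of 0.02 was close to the -0.03 of all probe sets. The higher ones included the ephrin receptor Epha2 (1.59), the early response gene Ier3 (0.70), the EGF receptor ligand Hbegf (0.70) and the membrane protein Emp1 (0.65). Egr1, an immediate early transcription factor, was lower, with a log2 difference of -1.36 (adjusted p = 0.0243). Its level was 8.87 ± 1.20 in wild-type pituitaries and 7.51 ± 0.41 in adenomas, and 4 of the 9 rats lay below all wild-type pituitaries. Among genes not called, Fosl2 (-0.91, limma adjusted p = 0.0666) and Fos (-0.87, limma adjusted p = 0.0521) had the lowest differences. Myc had the highest (0.67, limma adjusted p = 0.194). Fosl2, Fos and Myc were named after their values were seen. The lower count of this list rested on single wild-type pituitaries: it was 0 without number 4, 3 without number 1 and 2 without number 2 or 5. The higher count was 5 to 6 with 1 animal left out.

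Of 20 receptors that signal through ERK, 6 were higher and 4 lower. The largest differences were those of Ret (log2 difference 2.15), the FGF receptor Fgfr2 (1.90), Kit (1.78) and the gonadotropin-releasing hormone receptor Gnrhr (1.40), which were higher, and of the EGF receptor relative Erbb4, which was lower, with means of 6.32 in wild-type pituitaries and 5.32 in adenomas. All 9 rats lay above all wild-type pituitaries in each of the 4 higher ones named and below them in Erbb4.

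**Figure D5:**
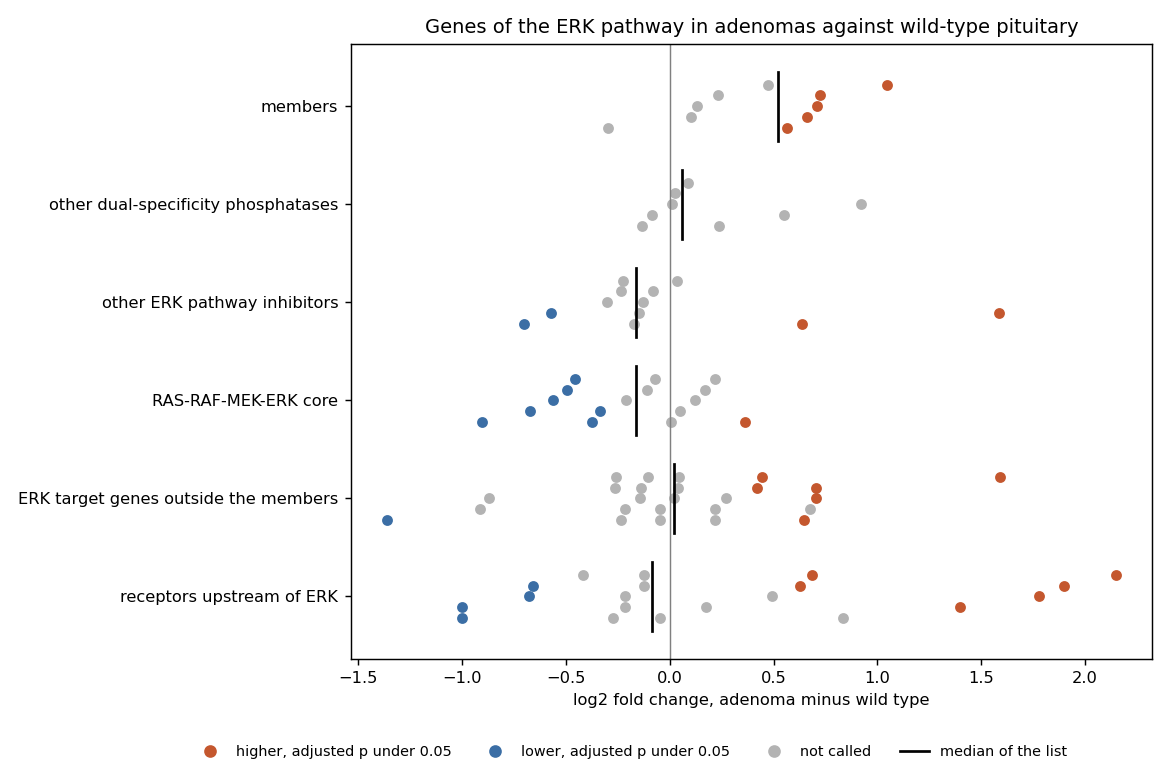
Log2 fold change of adenomas over wild-type pituitaries (horizontal axis) for the 10 genes (row "members") and 5 other lists of the ERK pathway; each point is a gene, colored where the limma adjusted p was under 0.05, and black bars are list medians. The 10 genes have a median of 0.52, and the other lists have medians between -0.16 and 0.06.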

How the data were processed

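RNA of macrodissected tissue was hybridized to 21 arrays. The deposited values are log2 expression made by the authors with RMA in Affymetrix Expression Console (sketch-quantile normalization, median polish); tool versions were not given in the sources used here, and scanner files were not used. Quantile normalization can mask a change shared by most genes. Precision is limited by the 9 rats and 5 wild-type pituitaries. Of 29214 probe sets 15310 carry 1 symbol in the platform annotation. The 10 genes and all lists were chosen with earlier results of these data known. Named are these genes, their family relatives, up to 5 called genes per pathway list by size, gonadotroph markers, Cdkn1b and the 5 genes most like Dusp6; genes named outside this rule are marked as chosen after their values were seen. Sample numbers were read as animals. The labels give 9 numbers and ages of 7 to 12 months, where the paper's text gives another number of rats and another age. Nothing else shows which lesions share a rat. Lesions of 1 number were averaged, and limma 3.58.1 (R 4.3.3) fitted the group alone in each probe set (12 residual and 3.21 prior degrees of freedom), adjusted by Benjamini-Hochberg over all. Age was a slope over the 9 rats, and sex an interaction. Correlations have exact two-sided permutation p-values. The methods' t-test per probe set was an alternative, without and with the fold over 2, beside blocks, subsets, scalings, a filter on dim probe sets and each animal left out. The fit was tested on simulated data. Promoters came from RefSeq (GRCr8).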

Additional observations from a re-analysis of the deposited data

How the results depend on the processing

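The count of 5 higher genes stayed at 4 to 6 under every alternative that kept all animals or left out 1. It was 2 with number prefix 08 alone, 3 with prefix 09 alone and 0 with the adenomas of 7 or 8 months alone, settings with fewer animals. The count of lower genes was 0 to 1 with 1 animal left out. Dusp6, Dusp5, Dusp4 and Spry4 were called in all 14 of those fits. Over all probe sets, the higher calls were 363 with prefix 08 alone, 119 with adenomas of 7 or 8 months and 1573 to 3106 with 1 animal left out. The lower calls were 345 and 14 in the same subsets, 4142 with arrays as independent samples, 1703 with dim probe sets left out (fewer tested) and 1649 to 3780 with 1 animal left out. Of all calls 48.4% were higher, 59.1% without dim probe sets and 89.5% with adenomas of 7 or 8 months. The log2 difference of Etv4 turned to -0.025 with prefix 09 alone; the cause was not tested. By the methods' t-test without the fold, 4 of the 10 genes were higher and Spry2 was lost (adjusted p = 0.0668); with the fold over 2, 1 of the 10 was called, as by limma with that fold, and 382 probe sets were higher and 281 lower. Of the 45 pairs, 0 to 1 passed with 1 rat left out and 2 with adenomas of 10 to 12 months alone, an alternative chosen after seeing the data, as was the first lesion of each rat, which gave the same count of 5. No alternative changed the counts of 0 for age slopes and for the sex difference.

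With the replicate number of the labels as a block (replicate block), which only lesions 1 to 5 share with a wild-type pituitary, 5 genes were again higher, with 2453 higher and 2291 lower probe sets, and the log2 difference of Dusp6 was 1.14. Deviations of same-numbered samples correlated at -0.05 to 0.20, and 3 of 5 samples correlated best with their own number. Since the labels give these numbers no shared source and not every correlation was positive, the samples were not paired. Each gene had a single probe set, so the planned use of other probe sets was not run.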
